A study of Homo sapiens with 6 samples.

Results

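The inositol phosphatases described here are the genes named INPP or INPPL that the authors' deposited table of changed genes holds. They were selected by gene symbol, and 6 genes matched, INPP1, INPP4A, INPP5A, INPP5D, INPP5J and INPPL1, of 1998 listed genes in all. Their listing in this contrast is itself a measured outcome, so their changes are given below as a description and were not tested again. Human HepG2 cells, a liver cancer line that keeps many hepatocyte functions, received an siRNA against the long noncoding RNA H19 (siH19, 3 libraries) or a control siRNA (siCon, 3 libraries). Both groups were grown in serum-containing medium and collected after 48 h. RNA depleted of ribosomal RNA was sequenced, and siH19 was set against siCon to find transcripts that respond to loss of H19. The sources used here do not give the siRNA sequences or their number. The level of H19 itself was not analysed here, so siH19 stands for the submitters' label.

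Inositol phosphatases remove single phosphates from the inositol ring, either in membrane lipids (phosphoinositides) or in soluble inositol phosphates. When insulin binds its receptor, phosphoinositide 3-kinase (PI3K) makes PI(3,4,5)P3 in the plasma membrane, which recruits the kinase AKT. The 5-phosphatases turn this lipid into PI(3,4)P2, which can still recruit AKT, and the 4-phosphatases INPP4A and INPP4B then turn PI(3,4)P2 into PI3P. Other family members act on soluble messengers: INPP5A ends the calcium signal of inositol trisphosphate, and INPP1 takes the 1-phosphate off inositol bisphosphate on the way back to free inositol.

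Of the 6 genes, 5 were higher in siH19 in the authors' deposited table, against 44.7% of all listed genes, and INPP1 was lower, as were 55.3% of all listed genes. The 4 listed 5-phosphatases (INPP5A, INPP5D, INPP5J, INPPL1) and the 4-phosphatase INPP4A made up the higher group. The sizes were moderate: the median log2 fold change of the 6 genes in the authors' deposited table was 0.485, and the rises ran from 0.30 to 0.60, which is 1.23-fold to 1.52-fold. The listed genes as a whole had a median of -0.27, with 0.46 among those higher and -0.44 among those lower. Since the table holds called genes only, with adjusted p-values up to 0.0498, genes that were not called give no background for these counts. The other 5 INPP genes, INPP4B, INPP5B, INPP5E, INPP5F and INPP5K, were not analysed here, so nothing follows for the family as a whole.

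Promoter sequence was looked at because 5 of the genes moved together and 1 moved against them. RefSeq promoter windows (build GRCh38.p14, 300 bases around each gene start, most of them upstream) matched 4 of the 6 genes. Windows of 3 genes are printed: INPP1, the gene that was lower, INPP5D, the higher gene with the smallest adjusted p, and INPPL1, its closest relative. INPPL1 has 3 annotated starts in that table and the window of the start in the middle is shown. All run 5′ to 3′ on the plus strand, at chr2:190343339-190343638, chr2:233060092-233060391 and chr11:72223644-72223943. Capitals mark GC boxes (GGGCGG), ETS cores (GGAAGT) and the core of the cyclic AMP response element (TGACGT), searched on both strands with overlapping matches counted.
INPP1: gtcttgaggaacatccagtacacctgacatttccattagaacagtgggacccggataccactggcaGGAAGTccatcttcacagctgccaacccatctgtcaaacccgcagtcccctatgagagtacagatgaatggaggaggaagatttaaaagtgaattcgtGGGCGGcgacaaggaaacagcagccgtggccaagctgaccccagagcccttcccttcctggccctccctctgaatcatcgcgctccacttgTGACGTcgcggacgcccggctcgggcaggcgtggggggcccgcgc
INPP5D: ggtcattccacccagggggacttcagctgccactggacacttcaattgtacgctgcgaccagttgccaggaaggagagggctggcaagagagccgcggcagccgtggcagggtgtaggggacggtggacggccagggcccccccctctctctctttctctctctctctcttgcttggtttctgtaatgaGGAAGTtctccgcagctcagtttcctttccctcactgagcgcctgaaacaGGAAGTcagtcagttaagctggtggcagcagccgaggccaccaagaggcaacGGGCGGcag
INPPL1: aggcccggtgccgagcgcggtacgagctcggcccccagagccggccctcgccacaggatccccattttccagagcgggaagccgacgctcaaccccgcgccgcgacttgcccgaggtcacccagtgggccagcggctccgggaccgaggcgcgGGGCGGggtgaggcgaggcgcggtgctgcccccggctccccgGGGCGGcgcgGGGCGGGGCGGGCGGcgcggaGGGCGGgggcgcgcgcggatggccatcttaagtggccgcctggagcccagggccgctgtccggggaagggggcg

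Composition depended on which start was taken. The printed INPPL1 window is 79.3% G or C with 44 CpG pairs and holds 6 GC boxes, some of which overlap, and it is the highest of that gene's 3 windows on each of these measures. The other INPPL1 windows are 63.3% G or C with 28 CpG pairs and 4 GC boxes, and 71.0% with 24 CpG pairs and 2 GC boxes. INPP4A has a window of 48.7% with 9 CpG pairs and no GC box, and another of 68.7% with 29 CpG pairs and 4 GC boxes. INPP5D, at 60.3% G or C and 12 CpG pairs, holds 2 ETS cores and 1 GC box. INPP1, at 58.7% and 17 CpG pairs, holds 1 match of each of the 3 sequences. Over all 35116 windows the median was 58.7% G or C, with quartiles of 47.0% and 68.0%, and the windows of INPP1 and INPP5D, the 63.3% window of INPPL1 and the 48.7% window of INPP4A lie between these quartiles. A GC box was found in 45.0% of all windows, an ETS core in 22.8% and the cyclic AMP response core in 7.98%. The cyclic AMP response core was found in the INPP1 window and in no window of INPP4A, INPP5D or INPPL1. A forkhead sequence (TGTTTAC, the kind FOXO factors bind) was present in 3.42% of all windows and a TATA sequence (TATAAA) in 11.5%, and neither string occurred in any of the windows matched to these genes. Such matches describe letters in a window and say nothing of binding.

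INPPL1 encodes SHIP2, a widely expressed 5-phosphatase that acts on PI(3,4,5)P3 and is known as a negative regulator of insulin signalling. Its normalized count in the authors' deposited table was 9.98 in siH19 and 9.49 in siCon on the log2 scale, which is 1009.9 and 719.1 on the linear scale. The log2 fold change there was 0.49 ± 0.13 (SE), a 1.40-fold rise with an adjusted p of 0.0029 in the authors' deposited table. Its mean count of 862.8, against a median of 639.8 over all listed genes, leaves counting error small beside the deposited SE (0.0401 for 3 libraries on each side). As for every gene in this table, a group has a single combined value, so whether its libraries overlap with those of the other group cannot be seen.

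INPP5D encodes SHIP1, a 5-phosphatase best known from blood cells, where it limits PI3K signals from immune receptors. It stood at 9.67 in siH19 and 9.15 in siCon (log2 normalized count, authors' deposited table), or 814.6 and 568.1 on the linear scale. The rise, 0.53 ± 0.10 (SE) or 1.44-fold, had the smallest adjusted p of the 6 genes in the authors' deposited table, 2e-06. Of 13 blood cell markers looked up beside it, a list drawn up after values had been seen, 2 were listed: CD68, a lysosomal glycoprotein of macrophages, at -1.21 ± 0.11 and the lysozyme gene LYZ at -0.64 ± 0.08 in the authors' deposited table. Both were lower in siH19, while INPP5D was higher. The remaining 11, PTPRC and SPI1 among them, were not among the listed genes, and their levels were not analysed here. The 5 hepatocyte markers ALB, TTR, APOB, AFP and SERPINA1 were all listed, with mean normalized counts from 793.2 to 240657, and all were lower in siH19, with log2 fold changes of -0.88 to -0.35 in the authors' deposited table. Their part in the changes of the inositol phosphatases was not tested. The RNA came from whole cultures of HepG2 cells, so a change in all cells and a change in some of them cannot be told apart.

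INPP5J encodes a 5-phosphatase (also called PIPP) that can act on PI(3,4,5)P3 and on soluble inositol phosphates. It was barely expressed: 4.05 in siH19 and 3.45 in siCon (log2 normalized count, authors' deposited table), which is 16.6 and 10.9 on the linear scale. Only 5 listed genes had fewer counts behind their values than its mean count of 13.7, so counting error is large here. INPP5J nevertheless had the largest fold change of the 6 genes, 0.60 ± 0.21 (SE), a 1.52-fold rise, with the largest adjusted p among them (0.0304 in the authors' deposited table). The deposited SE is smaller than 0.318, the SE expected from counting error by itself with 3 libraries on each side at this mean count. That holds for 51 of the 108 listed genes with a mean count under 50. Whether the deposited SE and fold change were moderated with values from other genes is not stated. The comparison with counting error therefore cannot show that the deposited SE is too small. The size of this change stays in doubt.

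INPP5A encodes the 5-phosphatase of soluble inositol trisphosphate and tetrakisphosphate, and it does not act on PI(3,4,5)P3. It had 9.53 in siH19 and 9.23 in siCon (log2 normalized count, authors' deposited table), or 739.3 and 600.5 on the linear scale. Its log2 fold change of 0.30 ± 0.10 (SE), 1.23-fold, was the smallest of the 6 in the authors' deposited table, with an adjusted p of 0.0167. By absolute change it ranked 1667 of 1998 listed genes. INPP5J and INPP5A are thus the members nearest to the authors' threshold of 0.05, and no member outside it was analysed here.

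INPP4A, the listed 4-phosphatase, acts on the PI(3,4)P2 that SHIP1 and SHIP2 make. It was at 8.72 in siH19 and 8.25 in siCon (log2 normalized count, authors' deposited table), or 421.7 and 304.4 on the linear scale. The log2 fold change was 0.48 ± 0.12 (SE), a 1.39-fold rise, with an adjusted p of 7.23e-04 in the authors' deposited table. Set against the 4 listed 5-phosphatases, whose median was 0.51, the 4-phosphatase lay inside their range. It exceeded INPP5A by 0.18, with a combined SE of 0.156, and was below INPP5D by a gap of 0.05 with the same combined SE. These combined SEs treat the genes as independent. They describe genes kept because they were called, and no test of a difference was made. The widest gap among the 5 higher genes, INPP5J over INPP5A, was 0.30 with a combined SE of 0.233. With 1 listed 4-phosphatase this compares genes and not enzyme classes.

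INPP1, which acts on soluble inositol phosphates at the lithium-sensitive part of the cycle, moved the other way. It had 8.69 in siH19 and 9.24 in siCon (log2 normalized count, authors' deposited table), or 413.0 and 604.7 on the linear scale. The log2 fold change was -0.55 ± 0.12 (SE), a 1.46-fold fall, with an adjusted p of 1.03e-04 in the authors' deposited table. The 5 higher genes exceeded INPP1 by 0.85 (INPP5A, combined SE 0.156) to 1.15 (INPP5J, combined SE 0.242) on the log2 fold change scale. Called genes lie away from 0, so a called rise and a called fall must be apart. No test of these gaps was made. In size, its change ranked 645 of 1998 listed genes, between those of INPP5J (512) and INPP5D (713).

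**Figure D1:**
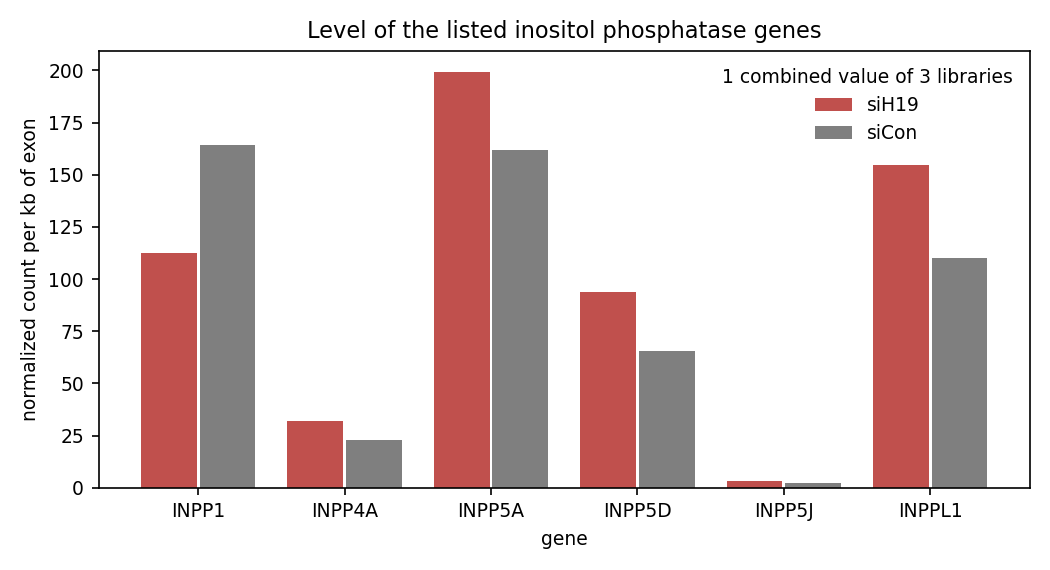
Bars give the normalized count per kb of annotated exon (vertical axis) for each of the 6 listed genes, with siH19 left of siCon, each bar being the authors' 1 combined value of 3 libraries, without an error bar. INPP1 is lower in siH19 (112.4 against 164.5), INPP5J is close to 0 in both groups, and the other 4 genes are higher in siH19.

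Levels of different genes were compared per length, as normalized count per kb of all annotated exons (GENCODE release 29). In siH19 cells the order was INPP5A (199.5), INPPL1 (154.9), INPP1 (112.4), INPP5D (93.8), INPP4A (31.98) and INPP5J (3.44). In siCon cells it was INPP1 (164.5), INPP5A (162.0), INPPL1 (110.3), INPP5D (65.4), INPP4A (23.1) and INPP5J (2.27). INPP1 and INPP5A were thus nearly level in siCon cells, and INPP1 was the third in siH19 cells. Per kb of the longest coding transcript INPP1 was ahead of INPP5A more clearly in siCon cells (279.7 against 202.4), and the order in siH19 cells kept INPP5A (249.2) and INPPL1 (213.4) above INPP1 (191.0). No error can be given for these levels, so neighbours in the order cannot be said to differ. The highest mean level exceeded the lowest 63.4-fold, and the 4-phosphatase was below 3 of the 4 listed 5-phosphatases in both groups.

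**Figure D2:**
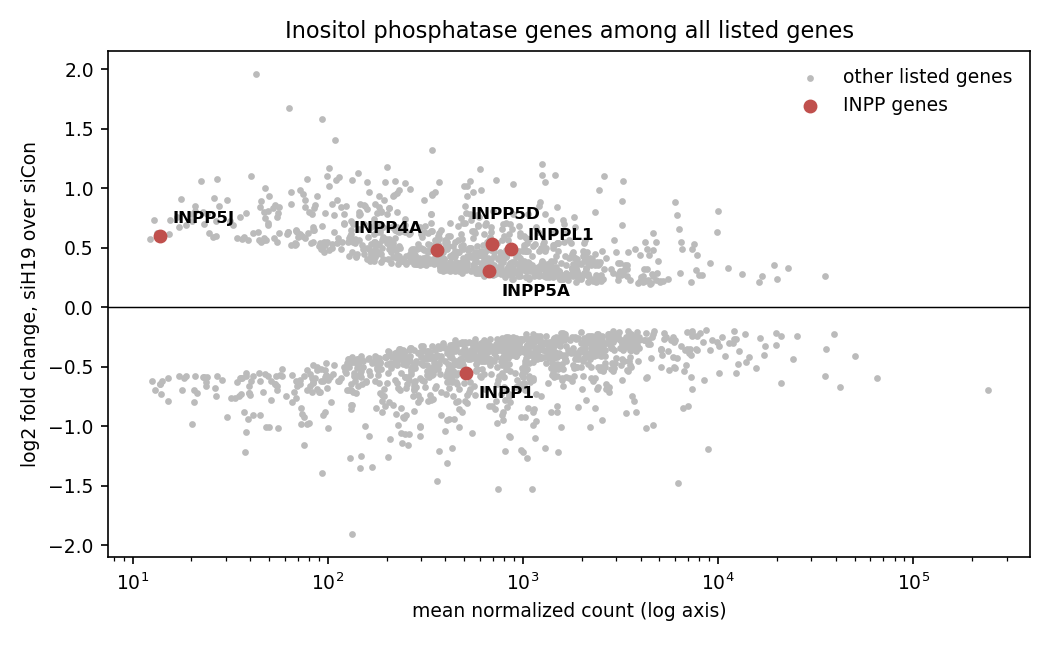
Each point is 1 of the 1998 listed genes, with its mean normalized count (horizontal, log axis) and log2 fold change, siH19 over siCon (vertical), and the 6 inositol phosphatase genes in red. INPP5J (13.7) lies at the low end of the counts, INPP5A (0.30) lies at the inner edge of the listed changes at its level, and INPP1 (-0.55) is the red point below 0.

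The 6 genes lie on 4 chromosomes, all on the plus strand (GENCODE release 29, GRCh38). INPP4A (chr2:98444854-98594390), INPP1 (chr2:190343470-190371665) and INPP5D (chr2:233059967-233207903) share chromosome 2 but lie far apart. INPP5A is at chr10:132537820-132783480, INPPL1 at chr11:72223701-72239105 and INPP5J at chr22:31122731-31134696. Annotated neighbours overlap 4 of them, HIBCH at INPP1, NKX6-2 at INPP5A, RN7SL32P at INPP5D and PHOX2A at INPPL1, and none of these neighbours is a listed gene. HIBCH, NKX6-2 and PHOX2A lie on the opposite strand. The library kit keeps strand, but whether counting used it is not stated in the labels.

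Letters in the 3′ untranslated region were compared because CATCAAA was more frequent among lower genes and GCAGTAC among higher genes of this table, a pattern already known when these genes were chosen. GCAGTAC occurred in the longest annotated 3′ untranslated region of 180 of 1880 listed genes, of which 83.3% were higher in siH19, against 41.4% of those without it. It was found in none of the 6 inositol phosphatases, including the 5 that were higher. CATCAAA occurred in 332 of 1880 genes (17.7%), of which 28.0% were higher, against 49.1% of those without it. Among the 6 genes INPP4A alone held it, at chr2:98589477-98589503 on the plus strand (GRCh38), position 1879 of a region of 6782 bases, printed with CATCAAA in capitals and 10 bases on each side.
INPP4A: tatctgcactCATCAAAgggaatatag

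INPP4A was higher in siH19, so its direction is opposite to that of most listed genes with this sequence. INPP1, the lower gene, held neither sequence in its region of 263 bases. The regions of the other 4 genes were 277 (INPP5J), 1451 (INPP5A), 1195 (INPP5D) and 888 bases (INPPL1) long, and short regions have fewer places for a match.

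The other inositol and phosphoinositide phosphatases of the lists were divided, with 3 of 9 higher and 6 lower (33 symbols looked up, some of them older names of the same gene) and a median of -0.32. By comparison, 44.7% of all listed genes were higher, and the median of all was -0.27. The higher ones in the authors' deposited table were OCRL (0.44 ± 0.10), a 5-phosphatase of Golgi and endosomes, FIG4 (0.37 ± 0.13), which removes the 5-phosphate of PI(3,5)P2, and MTMR6 (0.32 ± 0.11), a 3-phosphatase. The largest falls were those of MTM1 (-0.58 ± 0.10), a 3-phosphatase of PI3P, MTMR14 (-0.46 ± 0.12), another PI3P phosphatase, and MTMR10 (-0.42 ± 0.12), a relative predicted to be inactive, in the authors' deposited table.

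The listed phosphatases were also grouped by the position of the phosphate they remove or by enzyme family. This grouping was made after the values had been seen. Of all listed genes, 44.7% were higher and 55.3% were lower. All 6 listed 5-phosphatases were higher, 4 of them being the INPP genes counted above, with a median of 0.465. Of 5 listed genes described here for 3-phosphatases and their inactive relatives, 4 were lower, with a median of -0.42, the inactive MTMR12 (-0.36) among them in the authors' deposited table. INPP1 and the monophosphatase family members IMPA2 (-0.29 ± 0.11), which releases free inositol, and IMPAD1 (-0.32 ± 0.08), a Golgi nucleotide phosphatase of the same fold, were all 3 lower in the authors' deposited table. These groups are small and come from called genes only, and they get no test.

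**Figure D3:**
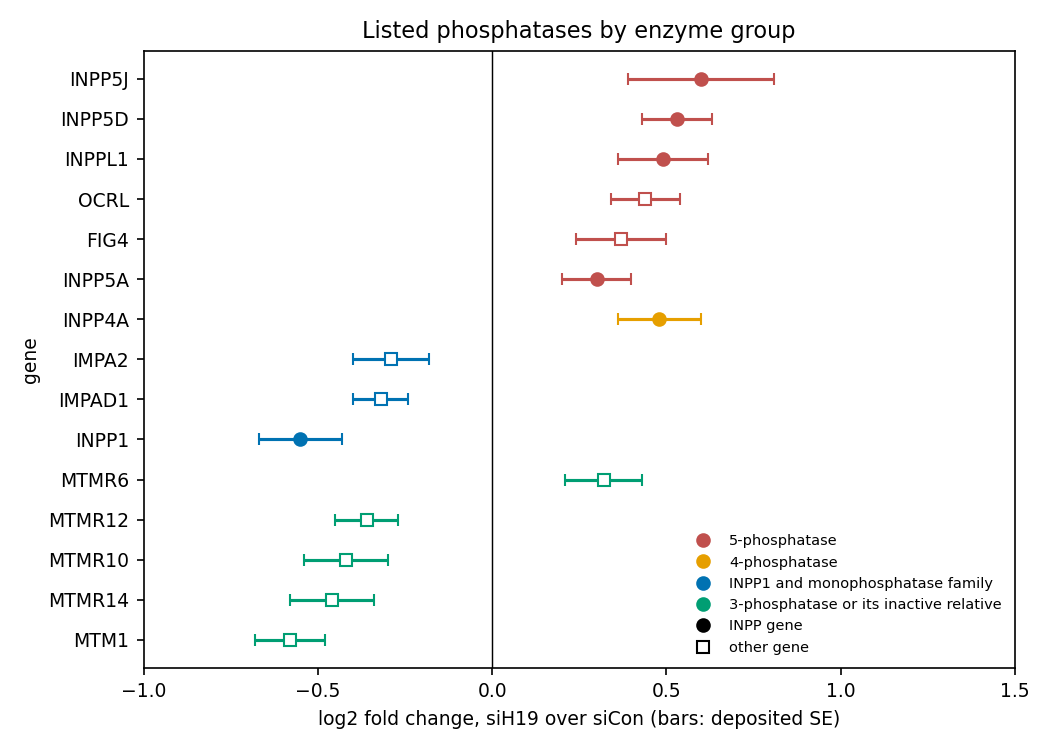
Points give the log2 fold change, siH19 over siCon (horizontal axis), of 15 listed phosphatases (rows) coloured by enzyme group, with bars of the deposited SE; filled circles are INPP genes and open squares other genes. All 6 listed 5-phosphatases and INPP4A lie right of 0, and INPP1, IMPA2, IMPAD1 and 4 of the 5 genes shown of the 3-phosphatase group lie left of it. The groups were formed after the values had been seen.

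Upstream in the insulin pathway few genes were listed, too few to set against the 44.7% of all listed genes that were higher. Of 30 symbols for the insulin receptor and its adaptors 3 were listed, all higher: SHC1 (0.43 ± 0.09), an adaptor to the RAS branch, GRB10 (0.62 ± 0.13), which inhibits the insulin receptor, and SOCS2 (1.40 ± 0.17), which damps growth hormone receptor signals, in the authors' deposited table. Of 17 symbols for PI3K subunits and partners 2 were listed. PIK3R2, a regulatory subunit of the PI3K that insulin activates, was lower at -0.63 ± 0.12, with 8.72 in siH19 and 9.35 in siCon (log2 normalized count, authors' deposited table). BECN1, a partner of the PI3K that makes PI3P, was higher at 0.23 ± 0.08 in the authors' deposited table. INSR, IRS1, IRS2, PIK3CA, AKT1 and AKT2 were not analysed here, so the steps between receptor and AKT are covered only in part.

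Downstream, 8 of 33 symbols of the AKT and mTOR branch were listed, 1 higher and 7 lower, with a median of -0.41. Most listed genes fell too: 55.3% of all of them were lower, and their median was -0.27. TBC1D7, a subunit of the TSC complex that restrains mTOR, was the higher one (0.55 ± 0.17 in the authors' deposited table). The largest falls were in the PI3K-dependent kinases SGK2 (-0.67 ± 0.14) and SGK1 (-0.65 ± 0.09) and in the translation repressor EIF4EBP2 (-0.48 ± 0.13), by the authors' deposited table. RPS6KB2, TBC1D1, PHLPP1 and RHEB were lower by smaller amounts. Of 16 symbols for FOXO factors and insulin-responsive liver genes 6 were listed, 1 higher and 5 lower, with a median of -0.69. FOXO3, a transcription factor that AKT holds out of the nucleus, was higher (0.75 ± 0.11), while G6PC (-1.91 ± 0.17) and IGFBP1 (-1.19 ± 0.12), both repressed by insulin in liver, were lower in the authors' deposited table. KLF15 (-0.76 ± 0.19), SESN3 (-0.62 ± 0.18) and PCK1 (-0.50 ± 0.19) were lower too in the authors' deposited table. The 5 hepatocyte markers given above were lower as well, and the part of insulin signalling in these falls was not tested.

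INPP5A and INPP1 act in the inositol phosphate and calcium branch, where the few listed phospholipase C genes were higher and the listed receptor genes were divided. All 3 listed phospholipase C genes, whose enzymes make inositol trisphosphate, were higher in the authors' deposited table: PLCG1 (0.44 ± 0.10), PLCD3 (0.43 ± 0.11) and PLCB1 (0.37 ± 0.11). They were the listed part of 20 symbols for phospholipase C and inositol supply. Of 14 symbols for inositol phosphate kinases and receptors 3 were listed, all of them calcium channels opened by inositol trisphosphate. ITPR3 (0.49 ± 0.10) and ITPR1 (0.28 ± 0.08) were higher, and ITPR2 (-0.29 ± 0.09) was lower in the authors' deposited table. Of 13 symbols for phosphoinositide 4- and 5-kinases 2 were listed and both were lower, PIKFYVE (-0.40 ± 0.08), which makes PI(3,5)P2, and PIP4K2A (-0.38 ± 0.09), which makes PI(4,5)P2, in the authors' deposited table. Over the 8 lists together 14 of 36 listed genes were higher and 22 lower, with 38.9% higher against 44.7% of all listed genes.

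**Figure D4:**
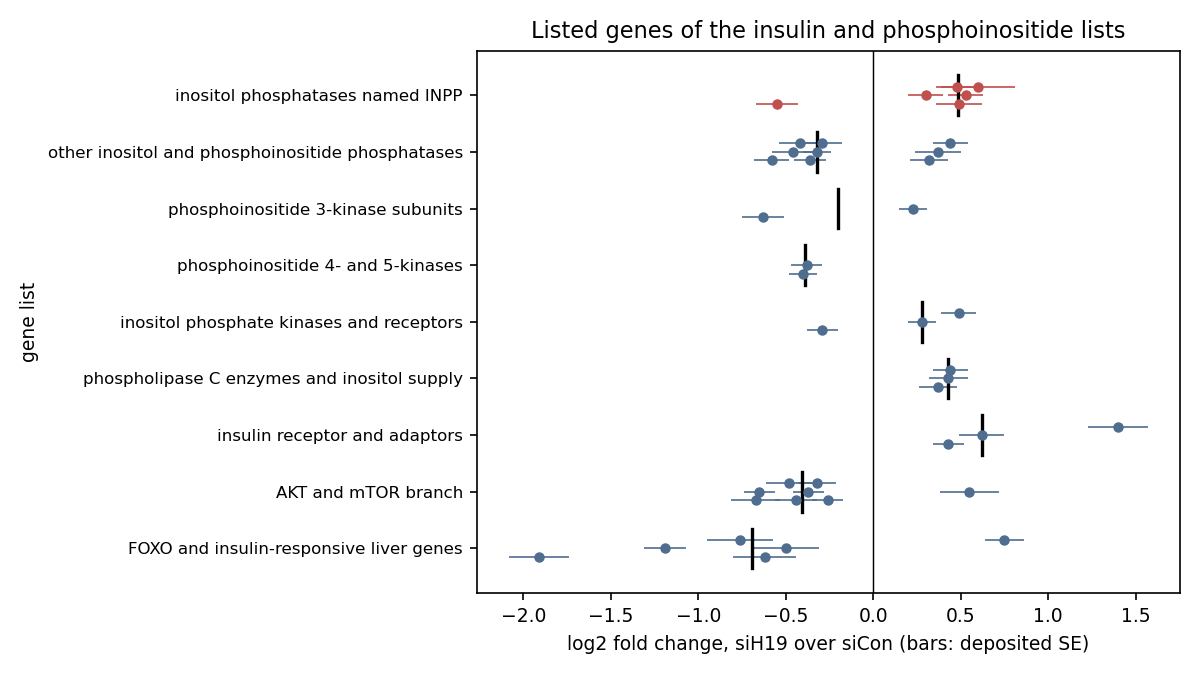
Points give the log2 fold change, siH19 over siCon (horizontal axis), of every listed member of the inositol phosphatases (red) and of 8 related gene lists (blue), with bars of the deposited SE and a black line at each list's median. The red points lie at 0.30 to 0.60 with INPP1 at -0.55. In the AKT and mTOR branch 7 of 8 genes lie left of 0, as do 55.3% of all listed genes.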

How the data were processed

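The authors deposited 1 table for the series, with a single combined value per group of 3 libraries. Per the file headers, its columns give a log2 count for each group, a log2 fold change with its standard error, a mean count and a q value (adjusted p-value). The authors' mean count is a normalized signal as deposited, not whole reads. The submitters' processing notes name STAR (2.5.0a), Cufflinks (2.2.1), DESeq2 (1.0.0) and build hg19, without role or order. The sources used here give no library totals, so depth is unknown. The labels do not say whether libraries came from separate cultures, so the authors' errors may be technical.

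The deposited fold change equalled siH19 minus siCon within 0.01 in all 1998 rows. No test of single genes or lists was added. Since there is no value per library, the genes most like each inositol phosphatase across libraries could not be named. Gene symbols were matched to GENCODE release 29 (GRCh38) for 96.1% of rows, for lengths, positions and 3′ untranslated regions, and promoter windows came from RefSeq (GRCh38.p14). Scripts used Python 3.11.15 with pandas 2.3.3, NumPy 2.4.6 and matplotlib 3.10.9. All listed INPP genes were named, and from each other list all listed genes, or the 3 largest rises and falls where over 6 were listed. RPS6KB2, TBC1D1, PHLPP1, RHEB, MTMR12, IMPA2, IMPAD1 and the marker genes were added after values were seen. The members and lists were chosen with earlier results of these data known. Some results on related genes are not reported here, and the list counts leave them out.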

Additional observations from a re-analysis of the deposited data

How the results depend on the processing

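At an adjusted p under 0.01 in the authors' deposited table, 3 of the 5 higher inositol phosphatase genes were left, since INPP5J and INPP5A have larger adjusted p-values, and INPP1 stayed as the 1 lower gene. A mean count of at least 100 removed INPP5J and a minimum size of change, set above the 1.23-fold rise of INPP5A, removed that gene, leaving 4 higher genes in each case, and the median log2 fold change ran from 0.48 to 0.49 over these 3 alternatives. Using the difference of the group values in place of the deposited fold change kept the sign of all 6 genes. Per kb of the longest transcript the highest mean level exceeded the lowest 60.3-fold. The gene with the highest mean level depended on the length used. It was INPP5A per kb of all annotated exons (180.6, with INPP1 at 138.7). Per kb of the longest transcript it was INPP1 (235.8, with INPP5A at 225.6). Counts of single pathway lists moved by over 1.5 times in 5 cases, each to 0 or 1 gene. These filters only take genes away from a list of called genes. Searching every annotated 3′ untranslated region in place of the longest, an alternative chosen after seeing the data, found the same INPP genes with CATCAAA (1) and GCAGTAC (0). No paired analysis was possible because the columns carry 1 value per group and no replicate number. For the same reason leaving out libraries, other normalizations and low-count filters per library were not run. Depth per library is unknown, and for INPP5J counting error limits what its change can show.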
